A study of Mus musculus with 4 samples.

Results

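The following 10 named genes were fixed by symbol as endoplasmic reticulum (ER) chaperones and targets of the transcription factor XBP1: Hspa5, Hsp90b1, Hyou1, Calr, Pdia4, Creld2, Dnajb9, Dnajc3, Xbp1 and Herpud1. They were 10 of 17097 named genes, read by 23 of 28898 singly annotated probe sets, and the probe set brightest on average stood for each gene. B16F10, a pigmented mouse melanoma cell line, was measured on 4 Affymetrix arrays. Control 1 and control 2 were given MilliQ water (0 µM plumbagin), while plumbagin 1 and plumbagin 2 received plumbagin, a naphthoquinone made by plants, at 2 µM. The exposure lasted 24 h. No genetic change was named for any group, and nothing states that the pair of samples in a group came from separate cultures. Errors and p-values therefore measure only the spread between these samples, which may be technical. What the numbers 1 and 2 in the titles stand for is not stated either.

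The ER folds secreted and membrane proteins, and when unfolded proteins collect there, 3 sensors in its membrane, IRE1, PERK and ATF6, start the unfolded protein response (UPR). IRE1 splices the Xbp1 mRNA so that it encodes an active transcription factor, and XBP1 and ATF6 raise the genes of chaperones, disulfide isomerases and the machinery that returns misfolded proteins to the cytosol for degradation (ERAD). Melanoma cells carry a heavy load of secretory and melanosomal proteins through the ER. The arrays report the amount of a transcript, not its splicing, so the active form of Xbp1 was not measured.

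The ER stress response element (ERSE), CCAAT followed by any 9 bases and CCACG, bound by NF-Y together with ATF6 or XBP1, is the sequence through which many of these genes are known to answer to ER stress. It was searched on both strands in the 250 bases before the start of each gene in RefSeq (GRCm38.p6), where 9 of the 10 genes had an entry. It was present in 5 of these 9 windows and in 37 of all 32851 (0.113%). Hsp90b1 held 2 exact copies, and Hspa5, Calr, Creld2 and Dnajc3 held 1 each. Copies with a changed letter were not counted. The variant ERSE-II, ATTGG followed by any 1 base and CCACG, was in 1 of the 9 (Herpud1) and in 0.0304% of all windows. The letters TGACGTGG, a form of the core of the UPR element, were in 0 of the 9 and in 0.563% of all. Forms of this core with other letters were not searched. The parts CCAAT and CCACG, which every ERSE and ERSE-II contains on one strand or the other, were in 8 and 7 of the 9, against 33.8% and 28.3% of all windows. The genes had been chosen for their known role, so these counts are a description. The 6 windows with an ERSE or ERSE-II are printed 5′ to 3′ on the strand of the gene, with the whole matched element in capitals, because the expression of their genes is set beside each other further on. Their positions are chr2:34771840-34772089 (plus strand) for Hspa5, chr10:86705445-86705694 (minus strand) for Hsp90b1, chr8:84846932-84847181 (minus strand) for Calr, chr15:88819396-88819645 (plus strand) for Creld2, chr14:118937682-118937931 (plus strand) for Dnajc3 and chr8:94386179-94386428 (plus strand) for Herpud1.
Hspa5: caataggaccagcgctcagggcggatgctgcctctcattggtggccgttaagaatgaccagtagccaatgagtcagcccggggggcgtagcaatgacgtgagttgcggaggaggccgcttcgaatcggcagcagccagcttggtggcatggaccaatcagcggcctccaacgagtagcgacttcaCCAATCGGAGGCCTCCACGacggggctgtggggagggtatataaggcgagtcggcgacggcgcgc
Hsp90b1: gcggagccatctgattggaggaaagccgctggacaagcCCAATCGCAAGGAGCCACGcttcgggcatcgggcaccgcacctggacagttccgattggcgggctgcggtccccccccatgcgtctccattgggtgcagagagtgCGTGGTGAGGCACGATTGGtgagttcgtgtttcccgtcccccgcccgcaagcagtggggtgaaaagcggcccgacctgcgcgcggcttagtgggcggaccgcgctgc
Calr: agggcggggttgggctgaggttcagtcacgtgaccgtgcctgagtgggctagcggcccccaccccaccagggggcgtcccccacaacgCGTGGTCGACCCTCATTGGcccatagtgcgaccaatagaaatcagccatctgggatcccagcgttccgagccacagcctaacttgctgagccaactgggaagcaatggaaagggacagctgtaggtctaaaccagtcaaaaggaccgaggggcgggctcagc
Creld2: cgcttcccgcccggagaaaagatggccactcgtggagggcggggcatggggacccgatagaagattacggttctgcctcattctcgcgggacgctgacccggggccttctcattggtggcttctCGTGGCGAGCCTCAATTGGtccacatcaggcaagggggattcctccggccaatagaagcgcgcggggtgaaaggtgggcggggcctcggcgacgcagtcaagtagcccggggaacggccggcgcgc
Dnajc3: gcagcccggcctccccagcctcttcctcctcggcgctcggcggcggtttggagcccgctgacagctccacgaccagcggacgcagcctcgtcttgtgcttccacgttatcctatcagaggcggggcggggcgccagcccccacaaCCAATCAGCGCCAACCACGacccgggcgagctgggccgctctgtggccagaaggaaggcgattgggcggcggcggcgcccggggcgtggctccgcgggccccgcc
Herpud1: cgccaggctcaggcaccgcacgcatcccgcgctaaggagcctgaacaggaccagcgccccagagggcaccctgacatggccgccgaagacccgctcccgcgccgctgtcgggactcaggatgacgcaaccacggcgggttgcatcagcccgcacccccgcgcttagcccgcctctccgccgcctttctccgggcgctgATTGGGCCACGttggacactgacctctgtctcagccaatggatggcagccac
The ERSE of Hspa5 lay 65 to 47 bases before the start and read in the direction of the gene, as did that of Dnajc3 (105 to 87 bases). The copies in Calr (162 to 144 bases) and Creld2 (126 to 108 bases) read in the opposite direction. Hsp90b1 had one copy of each direction, 212 to 194 and 107 to 89 bases before the start. The ERSE-II of Herpud1 lay 52 to 42 bases before the start.

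The 4 arrays had medians of 4.32 to 4.39 and upper quartiles of 6.26 to 6.36 (log2 expression), with plumbagin 1 the lowest in upper quartile. Hybridization spike-in probe sets, added in fixed amounts to every sample, averaged 9.58 on plumbagin 1 and 8.46 to 8.77 on the other arrays. The 3-prime minus 5-prime difference of the Actb control probe sets, a sign of RNA integrity, was 0.47 to 0.56. All 7 melanocyte markers (Tyr, Tyrp1, Dct, Pmel, Mlana, Mitf, Sox10) were above the background level of 5.05, the 95th percentile of 41 odorant receptor genes, and their summed level was 14.37 to 14.51 (log2) on the 4 arrays. Of 22 markers of fibroblasts, leukocytes, T cells, keratinocytes and endothelium, 2 were above it (Cd3e at 6.22 and Kdr at 5.15), and their summed level was 8.60 to 8.72.

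The first question was whether the ER chaperone and XBP1 target genes differed after exposure to 2 µM plumbagin. None of the 10 genes passed the test. Their differences (plumbagin minus control, log2) ran from -0.21 for Herpud1 to 0.21 for Hsp90b1, and 5 were above and 5 below 0. After repeated quantile normalization 3 of the 10 were below 0, and after cyclic loess 2 were. In none of the 10 did both plumbagin arrays lie on the same side of both control arrays, which was the case for 25.4% of all genes tested and for 24.0% of those above background. The median of the 10 differences was -3.5e-05, against -0.01 over all genes tested and -0.05 over the genes above background, to which all 10 belonged. By limma with Benjamini-Hochberg adjustment over all 17097 genes, 0 of the 10 passed an adjusted p of 0.05 (0.00% of all genes), and 0 of the 10 had an unadjusted p under 0.05, against 169 of all genes (0.988%). The adjusted p was 1 for each of the 10. An exact permutation test of 2 against 2 arrays cannot go below 0.333, two-sided. In bulk RNA, fewer cells of a type and less RNA per cell cannot be told apart.

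**Figure D1:**
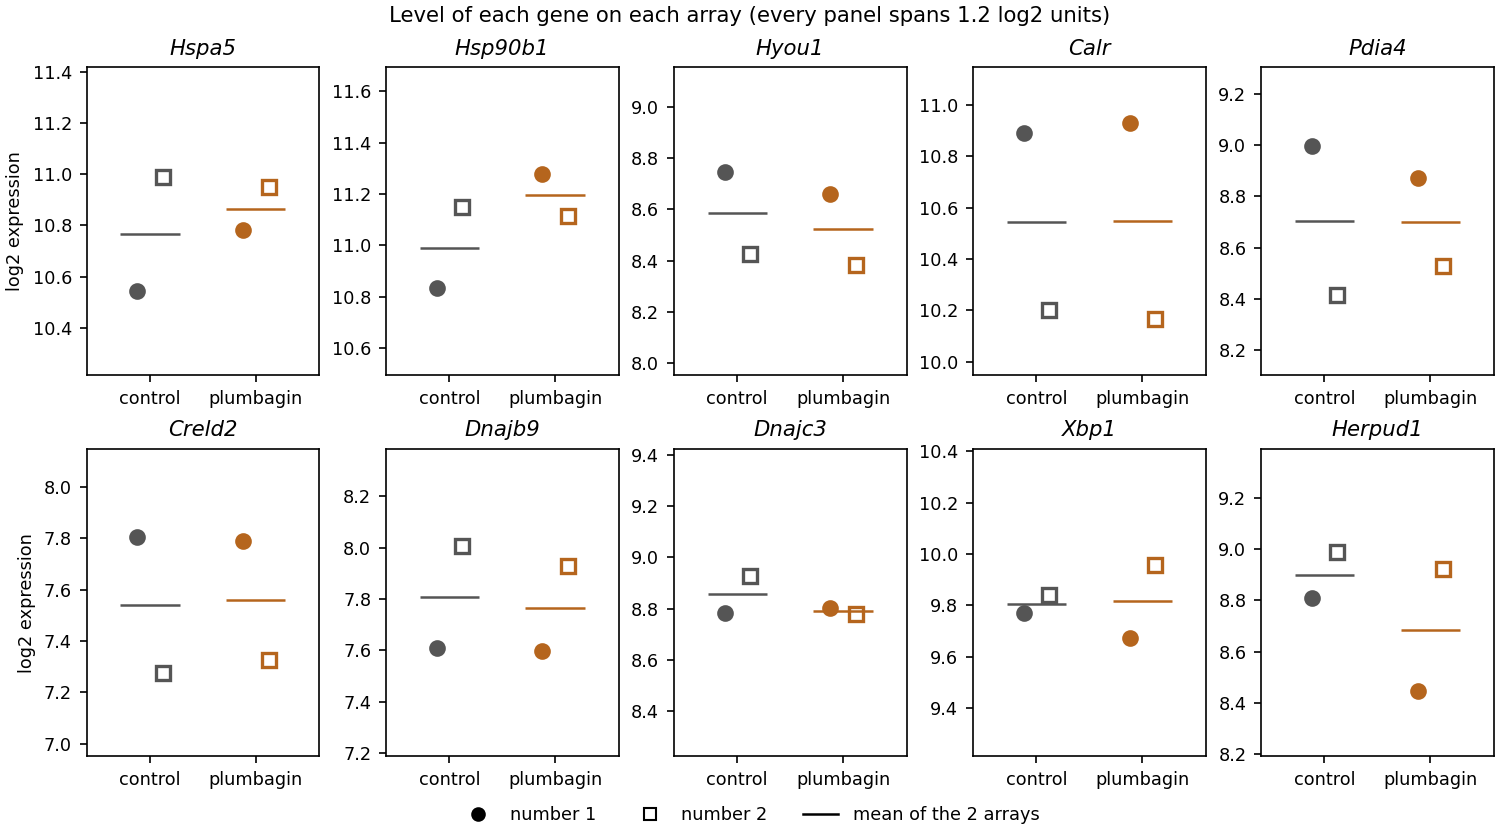
Log2 expression of the 10 genes on the 4 arrays, 1 panel a gene, with filled circles for number 1, open squares for number 2 and lines at the mean of the 2 arrays of a group. The control and plumbagin values overlap in every panel, and in Calr both circles lie near 10.9 and both squares near 10.2.

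HSPA5 (BiP) is the Hsp70 chaperone of the ER, which binds unfolded chains and keeps the 3 sensors inactive. Hspa5 measured 10.55 in control 1, 10.99 in control 2, 10.78 in plumbagin 1 and 10.95 in plumbagin 2 (log2). Values of the other genes are given in the same order. Both plumbagin values fell between the 2 controls, and the mean difference was 0.10 ± 0.18 (SE, n = 2 per group). Its 95% interval, -0.38 to 0.58, corresponds to 0.766-fold to 1.49-fold, and a larger rise lies outside it.

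HSP90B1 (GRP94) is the Hsp90 chaperone of the ER and folds integrins and Toll-like receptors, among others. Hsp90b1 had values of 10.83 and 11.15 in the controls and 11.28 and 11.12 with plumbagin. Control 1 was the lowest array and plumbagin 1 the highest, while plumbagin 2 lay just under control 2. The difference of 0.21 ± 0.14 (1.15-fold) was the highest of the 10. A second probe set of the gene gave 10.35 and 10.54 in the controls and 10.67 and 10.61 with plumbagin, a difference of 0.20 ± 0.10 in which both plumbagin arrays were above both controls. With the probe sets of each gene averaged, Hsp90b1 was the 1 gene of the 10 whose groups did not overlap. The share of all genes was not computed for averaged probe sets, and with the main probe sets it was 25.4%.

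HYOU1 (GRP170) is a large Hsp70-related protein that exchanges nucleotide on BiP. Hyou1 had values of 8.75 and 8.43 in the controls and 8.66 and 8.38 with plumbagin. The number 1 array was the higher of the pair in both groups, and the difference between the groups was -0.06 ± 0.16. A probe set of Hyou1 below background, at 4.12 and 4.01 in the controls and 3.71 and 3.69 with plumbagin, gave -0.36 ± 0.09 (limma adjusted p = 1 over all probe sets). Calreticulin (Calr) is a lectin that binds calcium and glycoproteins in the ER. Its values were 10.89 and 10.20 in the controls and 10.93 and 10.17 with plumbagin. The controls differed from each other by 0.69, while the mean difference between the groups was 0.00275 ± 0.36 and its 95% interval ran from -0.96 to 0.97. This fit had no term for the number, so the gap between the numbers entered the SE. With the number as a block in the model, the SE was 0.08.

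PDIA4 (ERp72) forms and exchanges disulfide bonds, and CRELD2 is a secreted ER stress protein with a disulfide isomerase-like activity. Pdia4 had values of 9.00 and 8.41 in the controls and 8.87 and 8.53 with plumbagin. Creld2 had values of 7.81 and 7.28 in the controls and 7.79 and 7.33 with plumbagin. In both genes the 2 plumbagin values lay inside the range of the controls. The differences were -0.00282 ± 0.24 for Pdia4 and 0.02 ± 0.25 for Creld2, with 95% intervals of -0.65 to 0.65 and -0.66 to 0.69. With the number as a block in the model, the SE was 0.10 for Pdia4 and 0.08 for Creld2.

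DNAJB9 (ERdj4) and DNAJC3 (p58IPK) are J domain partners of BiP. The first is a well-known XBP1 target and restrains IRE1, and the second is known as an inhibitor of PERK and related kinases. Dnajb9 had values of 7.61 and 8.01 in the controls and 7.60 and 7.93 with plumbagin. It was lower in number 1 than in number 2 in both groups, and the groups differed by -0.04 ± 0.19. Dnajc3 had values of 8.78 and 8.93 in the controls and 8.80 and 8.78 with plumbagin. Control 2 was the highest of these 4 values, which spanned the least among the 10 genes, and the difference was -0.06 ± 0.09 with a 95% interval of -0.31 to 0.18.

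Xbp1 had values of 9.77 and 9.84 in the controls and 9.67 and 9.96 with plumbagin. Plumbagin 1 was the lowest and plumbagin 2 the highest array, and the groups differed by 0.01 ± 0.13 (95% interval -0.33 to 0.35). HERPUD1 is a membrane protein that gathers the ERAD machinery. Herpud1 had values of 8.81 and 8.99 in the controls and 8.45 and 8.92 with plumbagin. Plumbagin 1 stood below the other 3 arrays, and plumbagin 2 lay between the controls. The difference of -0.21 ± 0.19 (95% interval -0.72 to 0.30) was the lowest of the 10, and it was 0.02 without plumbagin 1, the array that also stood apart in its spike-in level. The part of that array's quality in the value was not tested.

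Taken by number, plumbagin 1 minus control 1 and plumbagin 2 minus control 2 had the same sign in 3 of the 10 genes, Hyou1, Dnajb9 and Herpud1, all lower. Hyou1 differed by -0.08 and -0.04, Dnajb9 by -0.01 and -0.08, and Herpud1 by -0.36 and -0.06 in numbers 1 and 2. The 3 genes furthest from 0 in number 1 were Hsp90b1 (0.45), Herpud1 (-0.36) and Hspa5 (0.23). In number 2 no gene of the 10 differed by more than the 0.15 of Dnajc3, which was lower with plumbagin (-0.15). The median size of the difference, sign left aside, was 0.09 in number 1 and 0.06 in number 2 for the 10 genes, against 0.18 and 0.07 for the genes above background. Each of these is 1 array against 1, with no test.

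**Figure D2:**
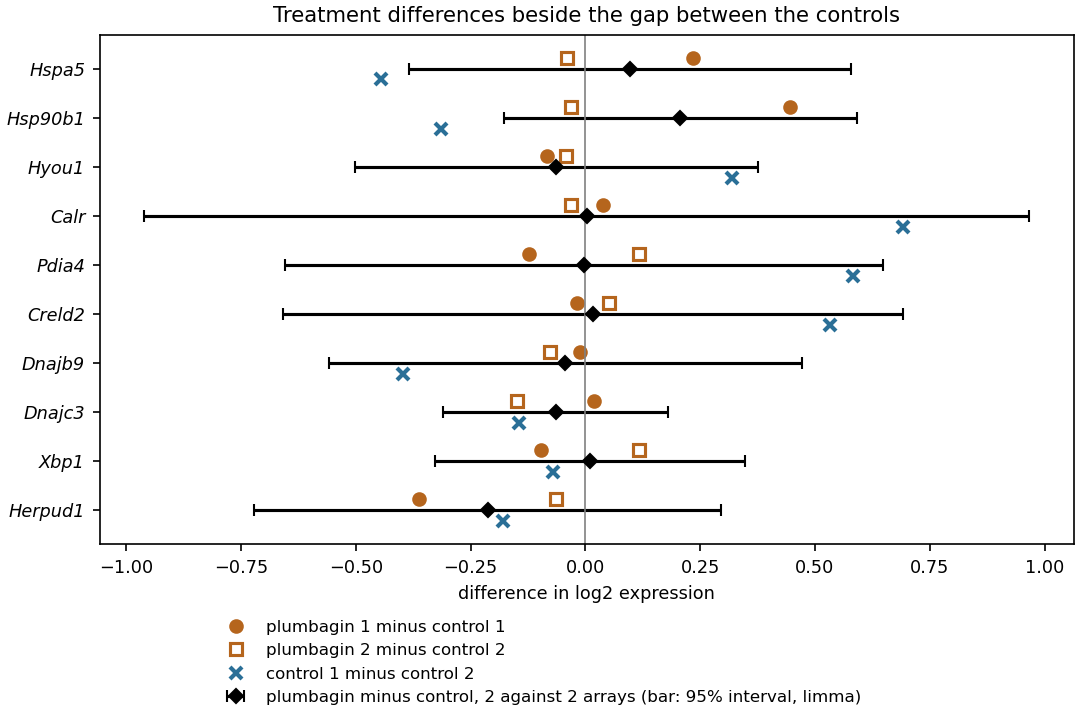
Differences in log2 expression for the 10 genes: diamonds with 95% intervals for plumbagin minus control (2 against 2 arrays), filled circles for number 1, open squares for number 2, and crosses for control 1 minus control 2. Every interval includes 0, and the crosses of Calr (0.69), Pdia4 (0.58) and Creld2 (0.53) lie furthest to the right.

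The gap between the untreated arrays was set beside the difference between the treatments. The 2 measures are unlike. The gap sets 1 array against 1, while the difference is between means of 2 arrays, in which a gap shared by both groups cancels. A larger gap is therefore common even without a difference in spread. In 9 of the 10, Herpud1 being the exception, the gap between control 1 and control 2 was larger than the mean difference between plumbagin and control, as it was in 64.9% of all genes tested and 69.2% of those above background. The median gap between the controls, sign left aside, was 0.36 for the 10 genes and 0.18 for the genes above background. Calr, Creld2, Pdia4 and Hyou1 were higher in control 1, by 0.69, 0.53, 0.58 and 0.32. Hspa5, Dnajb9 and Hsp90b1 were lower there, by -0.44, -0.40 and -0.31.

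The same division appeared in the plumbagin arrays, which share no sample with the controls. Plumbagin 1 was higher than plumbagin 2 by 0.76 in Calr, 0.46 in Creld2, 0.34 in Pdia4 and 0.28 in Hyou1. It was lower by -0.48 in Herpud1, -0.33 in Dnajb9, -0.28 in Xbp1 and -0.17 in Hspa5. The sign was that of the controls in 8 of the 10 genes, the exceptions being Hsp90b1 and Dnajc3. Dnajc3 was an exception on its main probe set only, and its other probe sets were lower in number 1 in both groups. In these 8 genes both number 1 arrays lay on the same side of both number 2 arrays, 4 above and 4 below. This was the case for 49.0% of all genes tested (30.0% above, 18.9% below) and for 56.8% of the genes above background, so such a division was common on these arrays. Melanocyte markers divided too: 6 of the 7 were lower and 1 was higher in number 1, with Mitf, the lineage transcription factor, at 10.70 and 10.64 in number 1 and 11.18 and 11.32 in number 2. The summed level of the 22 markers of other cell types was 8.68 and 8.72 in number 1 and 8.61 and 8.60 in number 2. The part of either marker set in the division of the ER genes was not tested.

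A limma fit of number 1 against number 2, with treatment in the model, was added after these values were seen. It gave 0.73 ± 0.08 for Calr (1.66-fold, limma adjusted p = 0.167), 0.50 ± 0.08 for Creld2 (1.41-fold, adjusted p = 0.167) and 0.46 ± 0.10 for Pdia4 (1.38-fold, adjusted p = 0.201). Hyou1 differed by 0.30 ± 0.08, Dnajb9 by -0.36 ± 0.08, Herpud1 by -0.33 ± 0.11 and Hspa5 by -0.31 ± 0.10. Of the 10 genes 0 passed an adjusted p of 0.05 and 7 had an unadjusted p under 0.05, against 0 (0.00%) and 2698 (15.8%) of all genes and 27.2% of the genes above background for the unadjusted count. With only genes whose mean was above background, Calr and Creld2 passed (2 of the 10, beside 693 of 8637 genes, 8.02%). Without a treatment term, 0 of the 10 and 0 of all genes (0.00%) passed on the 4 arrays. The fits that leave out an array had no treatment term either and set 1 array against 2, so that the spread was taken from that pair and nothing measured it for the single array. Of the 10, 5 passed without control 1, where 13.7% of all genes did, and 6 without plumbagin 1, where 13.0% did. None of the 10 and 0.00% of all genes passed without control 2 or without plumbagin 2.

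**Figure D3:**
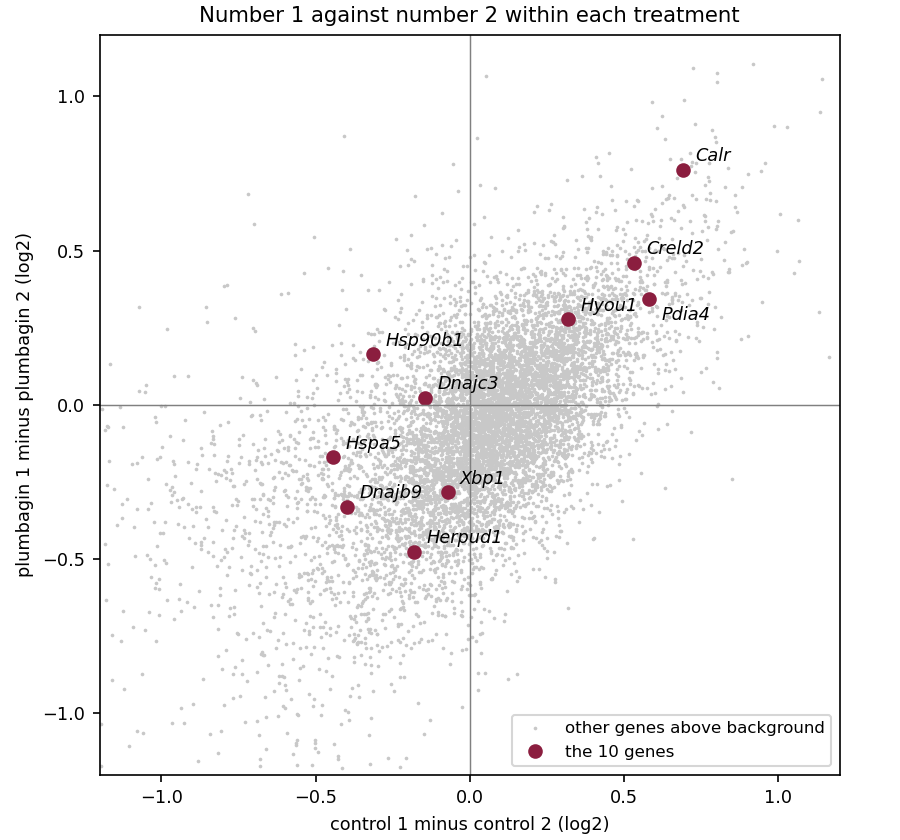
Control 1 minus control 2 (horizontal axis) against plumbagin 1 minus plumbagin 2 (vertical axis), in log2 expression, for the 10 genes (labelled) and for the other genes above background (grey; 102 lie outside the axes). Calr, Creld2, Pdia4 and Hyou1 lie at the upper right, Hspa5, Dnajb9, Herpud1 and Xbp1 at the lower left.

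The genes that share an ERSE in the printed windows did not share a direction between the numbers. Calr and Creld2 were higher in number 1 in both groups. Hspa5 was lower in number 1 in both groups. Hsp90b1 changed sign from the controls to the plumbagin arrays, as did Dnajc3 on its main probe set only. Herpud1, with ERSE-II, was lower in number 1. With treatment, the 5 ERSE genes differed by -0.06 to 0.21. Of 35 genes with an ERSE in the window, a list taken by sequence after the values were seen that includes 5 of the 10, 19 were measured. Of these, 10 were higher and 9 lower with plumbagin, with a median of 0.00275 against -0.01 for all genes tested, and 0 passed the test in either direction. Of the 19, 6 were below background. Without the 5 of the 10, 6 of the other 14 were higher and 8 lower, and the median was -0.05.

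Of the 10 genes, 7 had more than 1 probe set. Where on the transcript each one lies was not analysed here. Beside the main probe sets, 13 others were assigned to these genes, and 12 of them were above background. For the treatment, 7 of the 12 had the sign of the main probe set and 5 the opposite sign, all 5 in Dnajc3 and Xbp1. For number 1 against number 2, 11 of the 12 had the sign of the main probe set. The second probe set of Calr gave 10.27 and 9.54 in the controls and 10.38 and 9.54 with plumbagin, a gap between the numbers of 0.79 beside the 0.73 of the main one. That of Hspa5 gave 10.34 and 10.88 in the controls and 10.57 and 10.81 with plumbagin, again with both plumbagin values between the controls.

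The probe sets of Dnajc3 differed in the gap between the numbers. Its main probe set differed little between the numbers (-0.06), while the 4 others, all above background on average, gave -0.28 to -0.75. One of these had values of 7.97 and 8.60 in the controls and 8.14 and 8.58 with plumbagin, and another 5.00 and 5.39 in the controls and 4.36 and 5.48 with plumbagin. By treatment the 5 probe sets of Dnajc3 ran from -0.28 to 0.22 (-0.28 ± 0.41 and 0.22 ± 0.25 at the ends, SE), and no difference was larger than its SE. The 4 probe sets of Xbp1 differed by -0.08 to 0.01 between the treatments.

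Around the 10 genes, 80 others of the ER and the UPR were listed by role, and 74 were measured. None passed the limma test in either direction (0 higher, 0 lower, adjusted over all genes), and 0 had an unadjusted p under 0.05. Of the 74, 33 were higher and 41 lower with plumbagin, a share of 55.4% lower beside 55.2% of all genes and 65.1% of the genes above background, to which 73 of the 74 belonged. The groups did not overlap in 18 of them, 7 higher and 11 lower, where 10.2% of all genes were higher and 15.2% lower in this way, and 5.66% and 18.3% of the genes above background.

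Other ER chaperones and cochaperones had 10 of 14 measured members higher, with a median of 0.04 that was 0.06 to 0.10 with 1 array left out and 0.09 after cyclic loess. Cnpy2, a saposin-like ER protein, differed by 0.56 ± 0.34, with values of 9.20 and 9.61 in the controls and 10.40 and 9.53 with plumbagin, so that plumbagin 1 alone stood high. Its difference was 0.13 without plumbagin 1 and 0.16 with its 3 probe sets averaged. Dnajc10 (ERdj5), a disulfide reductase with a J domain, differed by 0.14 ± 0.09, and Sdf2 by 0.13 ± 0.08. In both of these genes the plumbagin arrays lay above the controls on the main probe set, but Dnajc10 differed by 0.04 with its probe sets averaged. Among other disulfide and oxidoreductase genes 8 of 12 were higher, with a median of 0.02 that was -0.08 without control 2 and -0.02 without plumbagin 2. Ero1a, the oxidase that recharges disulfide isomerases, had values of 10.75 and 10.88 in the controls and 11.09 and 10.98 with plumbagin, a difference of 0.22 ± 0.10 with no overlap. Pdia6 differed by 0.21 ± 0.20 and Ero1b by -0.11 ± 0.08. With probe sets averaged, Ero1a differed by 0.15, Pdia6 by 0.11 and Ero1b by -0.04, and Pdia6 differed by 0.0021 without plumbagin 1.

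ERAD genes had 10 of 14 members lower (71.4%), beside 65.1% of the genes above background. Their median was -0.05, as was that of the genes above background. The ERAD median was 0.05 without plumbagin 1, 0.01 without control 2 and 0.01 after cyclic loess. Edem3, a mannosidase-like protein that marks glycoproteins for ERAD, differed by 0.27 ± 0.18, Ube2g2, an ERAD ubiquitin-conjugating enzyme, by -0.24 ± 0.16, and Derl1, a membrane protein of the ERAD channel, by -0.18 ± 0.14. Ube2g2 and Derl1 were at -0.04 and -0.03 without plumbagin 1, and Edem3 at 0.08 without control 1. Translocation and ER export genes had 9 of 17 higher and a median of 0.01, which was -0.06 without control 2 and -0.03 without plumbagin 1. Ssr4, a subunit of the translocon-associated complex, had values of 10.29 and 10.20 in the controls and 10.04 and 10.07 with plumbagin, a difference of -0.19 ± 0.08 that was -0.0011 with its 3 probe sets averaged. Ssr2 of the same complex differed by -0.17 ± 0.12, and Sec31a, a coat protein of ER export vesicles, by -0.20 ± 0.13. Ssr2 was at -0.04 without plumbagin 1 and Sec31a at -0.04 without control 1.

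UPR sensors and activators had 8 of 10 members lower, beside 65.1% of the genes above background, with a median of -0.13. That median was -0.05 without control 1, -0.08 without plumbagin 1, -0.08 after repeated quantile normalization and -0.06 after cyclic loess. Atf6b, a relative of ATF6, differed by -0.25 ± 0.12, and Nfya and Nfyc, subunits of the NF-Y factor that binds the CCAAT of the ERSE, by -0.28 ± 0.15 and -0.16 ± 0.09. In these 3 genes, named for the smallest p of the list, both plumbagin arrays lay below both controls. This was the case for 18.3% of the genes above background. In Mbtps2 of the same list (0.17 ± 0.09) both lay above both controls, as in 5.66% of those genes. Nfyb, another NF-Y subunit, differed by -0.05 ± 0.08, and its groups overlapped. Atf6b was at -0.12 without plumbagin 1, Nfya at -0.08 without control 1 and Nfyc at -0.09 after cyclic loess. PERK branch genes had 7 of 7 members lower and a median of -0.25, which was -0.39 in number 1 and -0.10 in number 2, and it was -0.04 without plumbagin 1 and -0.55 without plumbagin 2. The list was drawn up by role, and the activity of PERK was not measured. Atf4, the transcription factor translated when PERK is active, differed by -0.14 ± 0.09, its target Trib3 by -0.29 ± 0.19 and Chac1, which degrades glutathione, by -0.25 ± 0.17. Without plumbagin 1 they were at -0.07, -0.04 and -0.04, and Atf4 was at -0.06 with its probe sets averaged. Over the genes above background the median was -0.11 in number 1 and -0.0016 in number 2.

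**Figure D4:**
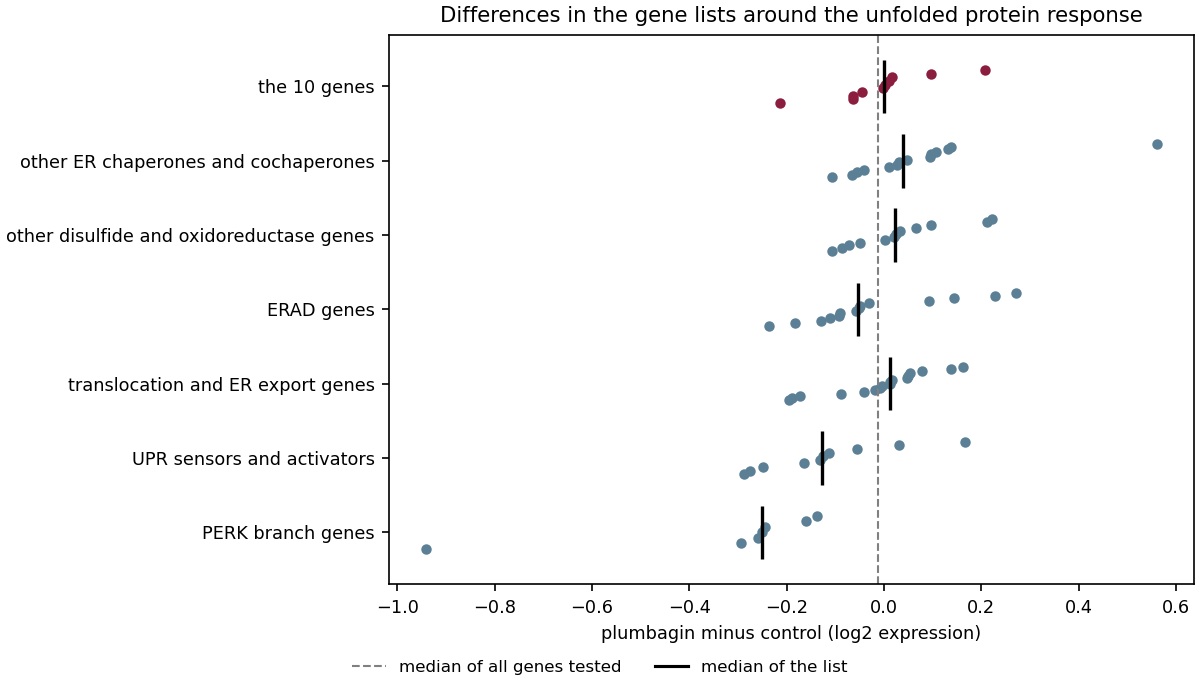
Plumbagin minus control (log2 expression, horizontal axis) for each measured gene of the 10 and of 6 lists of other ER and UPR genes, with a black line at the median of each list and a dashed line at the median of all genes tested (-0.01). The 10 genes lie within 0.21 of 0, and the PERK branch genes all lie below 0. Ppp1r15a is furthest out at -0.94 ± 0.78 (SE), with 8.39 and 9.26 in the controls and 6.83 and 8.94 with plumbagin. It differed by -1.56 in number 1 and by -0.32 in number 2.

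The mean profile of the 10 genes over the 4 arrays, each gene centred on its own mean, was nearly flat, since the genes that were higher in number 1 and those that were lower offset each other. Over 4 arrays the 5 genes nearest to it in Euclidean distance, out of 8627 other genes above background, were Ip6k2 (distance 0.0035), Cox5a (0.0037), Lurap1 (0.012), Ttc38 (0.013) and Psmb1 (0.016). The 10 genes themselves lay further from their own mean profile, from 0.16 for Dnajc3 to 0.66 for Calr. Of the genes above background 1968 lay nearer to that profile than Dnajc3 and 8040 nearer than Calr, so the profile describes no gene of the 10 closely.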

How the data were processed

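Biotin-labelled cRNA of 4 B16F10 samples was hybridised to Affymetrix 3-prime expression arrays, per the labels' protocols and the series' design text, which give different amounts of input RNA. The authors deposited log2 expression values of each probe set. Transcriptome Analysis Console, Affymetrix Expression Console and RMA appear in the submitters' processing notes, and what each was used for, and in which version, is not given in the sources used here. In general, RMA makes the distributions of arrays alike, which hides a shift shared by most genes, and compresses dim signals.

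Of 45141 probe sets, 104 were controls. The platform's annotation, which can be old, gave 28898 probe sets a single symbol, and 551 with several were left out. The Entrez number of 28689 probe sets was found in RefSeq (GRCm38.p6) and gave their symbol, whether or not this changed it. The brightest probe set on average stood for each of 17097 genes. Groups followed the titles. The main fit used limma 3.58.1 (lmFit, eBayes) in R 4.3.3 with treatment alone, two-sided, Benjamini-Hochberg adjustment over all genes and a threshold of 0.05. The code was checked on simulated data. With 2 arrays per group, their number limits the precision.

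The genes, lists and rules were chosen with earlier results of these data known. Beyond the 10 genes, the text names the 3 members of each list with the smallest p above background, the 5 genes nearest to the mean profile, and markers. Ppp1r15a, Mbtps2 and Nfyb were named after their values were seen. Alternatives were other probe set choices, 2 filters on dim genes, 3 normalizations, 2 forms of eBayes, a block for the number, and omission of single arrays. Promoters were searched for exact letters.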

Additional observations from a re-analysis of the deposited data

How the results depend on the processing

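No alternative called a gene between plumbagin and control by limma: 0 genes and 0 of the 10 passed with every probe set tested on its own, each filter, normalization and form of eBayes, and each array left out. With the number as a replicate block, 0 genes and 0 of the 10 passed. In this balanced layout the block cannot change a difference, so the median of the 10 stayed at -3.5e-05 and only the errors changed. With the block the SE was 0.08 for Calr, Creld2, Dnajb9 and Hyou1, and 0.09 for Dnajc3 and Xbp1. It was 0.10 for Pdia4 and Hspa5, 0.11 for Herpud1 and 0.14 for Hsp90b1. Arrays with the same number deviated together (r = 0.54 across 17097 genes, which are not independent replicates), but with 2 pairs and no label for the number, the samples share only a number. Directions were less settled. Of the 10 genes, 5 were lower with plumbagin as reported, 6 with averaged probe sets or centring, 3 with quantile normalization again and 2 with cyclic loess. Repeated quantile normalization turned Pdia4 (0.0393) and Dnajb9 (0.0192). Cyclic loess turned Hyou1 (0.0013), Pdia4 (0.0599) and Dnajb9 (0.0298), and moved the median of the 10 to 0.0460. Averaged probe sets turned Xbp1 (-0.0334) and left 1 gene, Hsp90b1, with groups apart, and centring on array medians turned Calr (-0.000133). Groups were apart in 25.4% of all genes with the main probe sets, and that share was not computed for averaged ones. The median of the 10 in number 1 was 0.0810 with quantile normalization again and 0.126 with cyclic loess, and between the controls it was -0.161 with cyclic loess.

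With 1 array left out, the spread came from the complete group alone and stood in for that of the single array (an assumption). Then 4 to 5 of the 10 were lower and the median ran from -0.0580 to 0.0439. Ranges over the 4 omissions were -0.125 to 0.319 for Hspa5, -0.223 to 0.0962 for Hyou1, -0.379 to 0.384 for Calr, -0.294 to 0.288 for Pdia4, -0.249 to 0.282 for Creld2, -0.243 to 0.154 for Dnajb9, -0.137 to 0.0077 for Dnajc3, -0.132 to 0.152 for Xbp1 and -0.451 to 0.0247 for Herpud1. Of the 10, only Hsp90b1 kept its sign under these 4 omissions (0.0496 to 0.364). Between the numbers, counts of calls changed with the setting: 26 genes with cyclic loess, 346 (1 of the 10) with centring, 2 with the eBayes trend, 693 (2 of the 10) with the filter on the mean and 574 (1 of the 10) with the filter on 2 arrays. With 1 array left out, 0 to 2347 genes and 0 to 6 of the 10 were called. On the main probe sets, Hsp90b1 (-0.298 to 0.148) and Dnajc3 (-0.135 to 0.0133) changed sign there, while the other 8 kept it. The filters test fewer genes and the omissions use fewer arrays; for the other settings the cause was not tested.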
